A study of Mus musculus with 15 samples.

Results

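The genes examined were 10 members of the feedback machinery that restrains mitogen-activated protein (MAP) kinases, taken by symbol from the 48795 genes counted: 6 dual-specificity phosphatase genes (Dusp1, Dusp2, Dusp4, Dusp5, Dusp6 and Dusp10) and 4 genes of the Sprouty and Spred family (Spry1, Spry2, Spry4 and Spred1). Each of the 10 symbols matched 1 gene of the tables, and all 10 passed the filter on low counts that left 14991 genes for testing. Polyadenylated RNA of ears of female mice, aged 5 weeks, was sequenced with a stranded kit in a model in which the phorbol ester PMA (phorbol 12-myristate 13-acetate) inflames the ear. The groups were PMA_1002 (PMA and the innate defense regulator peptide 1002, n = 6 libraries), PMA_ethanol (PMA and ethanol, n = 4) and Control (n = 5). The sources used here give no strain, dose, time or vehicle of the Control ears. The PMA_1002 label names no ethanol, so effects of the peptide and of the vehicle cannot be told apart. Nor do the labels tie each library to an animal of its own, and the p-values then measure only the spread between libraries, which may be technical.

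Phorbol esters such as PMA activate protein kinase C, and through Ras and Raf the extracellular signal-regulated kinases (ERK), while inflamed skin also activates the stress-responsive MAP kinases p38 and JNK. The DUSP genes encode phosphatases that remove the activating phosphates from MAP kinases, and many of them are themselves transcribed in response to MAP kinase activity, which closes a negative feedback loop. Sprouty and Spred proteins act further up, where they restrain signalling from receptor tyrosine kinases through Ras and Raf to ERK. In skin these pathways are known for their part in keratinocyte growth and migration and in the inflammatory response to injury. The values below are mRNA levels and say nothing on kinase activity.

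Reads assigned to genes numbered from 2656680 (PMA_ethanol library 3) to 28585995 (PMA_1002 library 5) per library. The tissue label was checked against marker genes: all 8 keratinocyte markers had reads in every group, with summed levels, in CPM (read counts scaled to a common library size), of 25798 to 29209 CPM in PMA_1002, 14057 to 18008 CPM in PMA_ethanol and 22588 to 29039 CPM in Control. Some other cell types moved with the groups. The 10 neutrophil markers, all with reads in every group, summed to 317 to 629 CPM in PMA_1002, 1662 to 3098 CPM in PMA_ethanol and 27.3 to 38.7 CPM in Control, and the 10 monocyte and macrophage markers, all with reads in every group, to 945 to 1291 CPM, 1459 to 2077 CPM and 573 to 729 CPM in the same order of groups. The 9 hair follicle markers found, of 10 sought, varied widely within each group (10.3 to 754 CPM in PMA_1002, 8.71 to 2284 CPM in PMA_ethanol and 50.6 to 2363 CPM in Control). The part of cell composition in the results below was not tested, and in bulk tissue fewer cells of a type and less RNA per cell cannot be told apart.

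PMA_ethanol versus Control asked which feedback genes differed between ears with PMA and ethanol and Control ears. The vehicle of the Control ears is not given, so effects of PMA and of ethanol cannot be told apart here. A gene was called higher or lower where edgeR's quasi-likelihood test gave a Benjamini-Hochberg adjusted p under 0.05, and fold changes are the first-named group over the other, on the log2 scale. Dusp1, Dusp2, Dusp5, Dusp6, Dusp10, Spry2, Spry4 and Spred1 rose, by log2 fold changes of 0.66 (Dusp10) to 3.48 (Dusp2). Dusp4 and Spry1 were not called. In all, 8 of the 10 members were called higher, where 32.5% of the genes tested were, and 0 were called lower (0 also at an unadjusted p under 0.05 and 0 with DESeq2), where 35.9% of the genes tested were. Counts of members called higher and lower were 7 and 1 (Spry1 lower, Dusp10 not called) with upper-quartile scaling, which shifted the median of all genes by -0.24. The groups did not overlap in CPM for 7 of the 10 members, against 57.8% of the genes tested. The members' median log2 fold change was 2.36, and that of all genes tested was -0.07.

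PMA_1002 versus PMA_ethanol asked how ears with the peptide differed from inflamed ears without it. Dusp1, Dusp2, Dusp5, Dusp6, Dusp10, Spry2, Spry4 and Spred1 were lower in PMA_1002, by log2 fold changes from -1.60 (Dusp2) to -0.88 (Spry2). Spry1 was higher, by 0.46, and Dusp4, at 0.48, was not called. These 8 members called lower compare with 18.0% of the genes tested, and the 1 called higher with 17.0%. The groups did not overlap for 8 of the 10 members, against 24.1% of the genes tested, and the median log2 fold change was -1.02 for the members and 0.03 for all genes tested. The PMA_ethanol libraries enter both of these comparisons, so their signs are not independent.

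PMA_1002 versus Control asked what remained apart from Control ears with the peptide. All members but Dusp10 were higher in PMA_1002, by log2 fold changes of 0.36 (Spry2) to 2.27 (Dusp6). In numbers, 9 of the 10 were called higher, where 28.4% of the genes tested were, and 0 were called lower (0 also at an unadjusted p under 0.05 and 0 with DESeq2), where 26.7% were. With upper-quartile scaling, which shifted the median of all genes by -0.16, 9 were called higher and 1, Dusp10, lower. The groups did not overlap for 7 of the 10 members, against 36.7% of the genes tested. The median log2 fold change was 1.19 for the members and -0.03 for all genes tested.

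**Figure D1:**
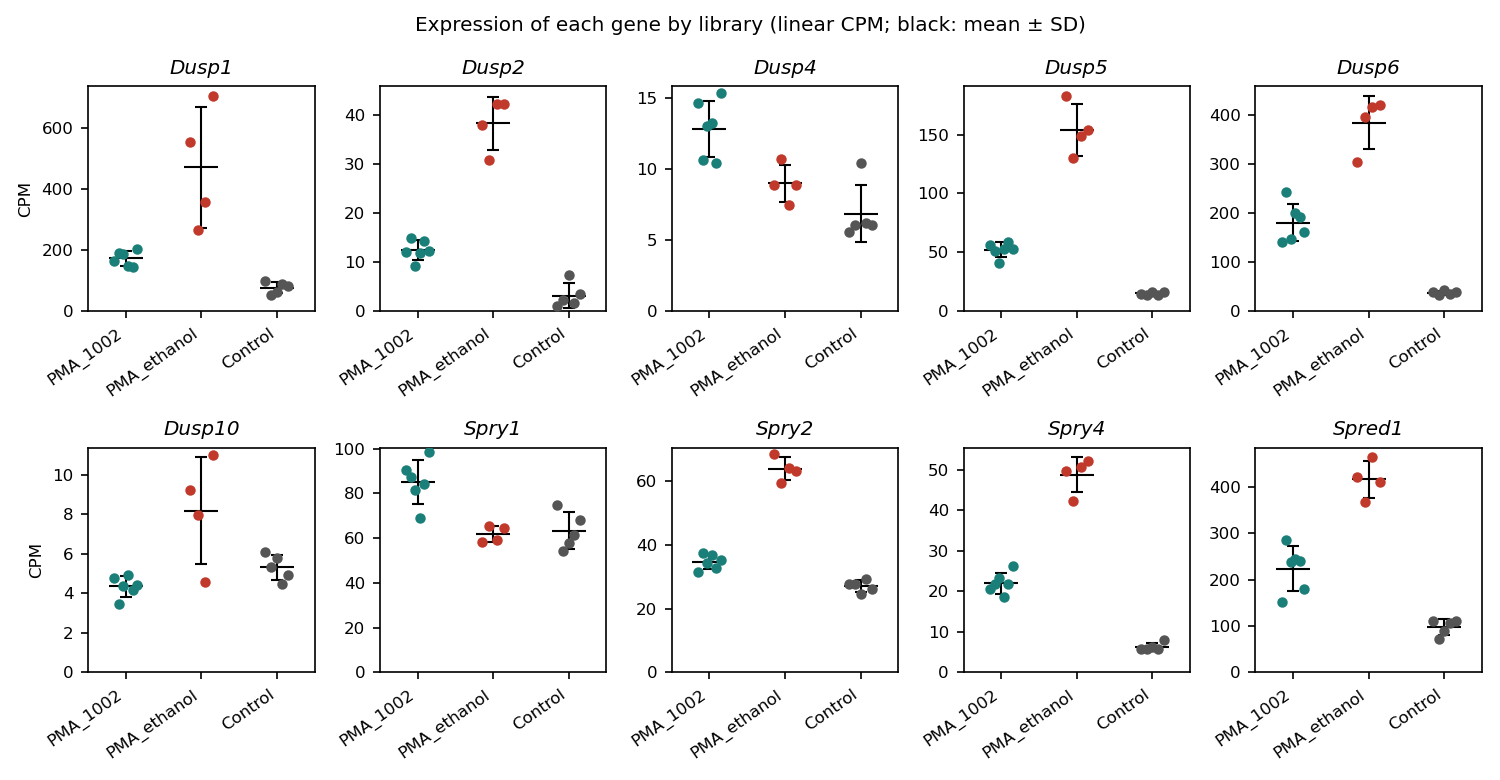
CPM of each of the 10 genes (linear vertical axis, starting at 0) in each library of PMA_1002 (6), PMA_ethanol (4) and Control (5); each point is a library, and black marks show the mean ± SD. Of the genes shown, Dusp4 and Spry1 have their highest group mean in PMA_1002 and the other 8 in PMA_ethanol.

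**Figure D2:**
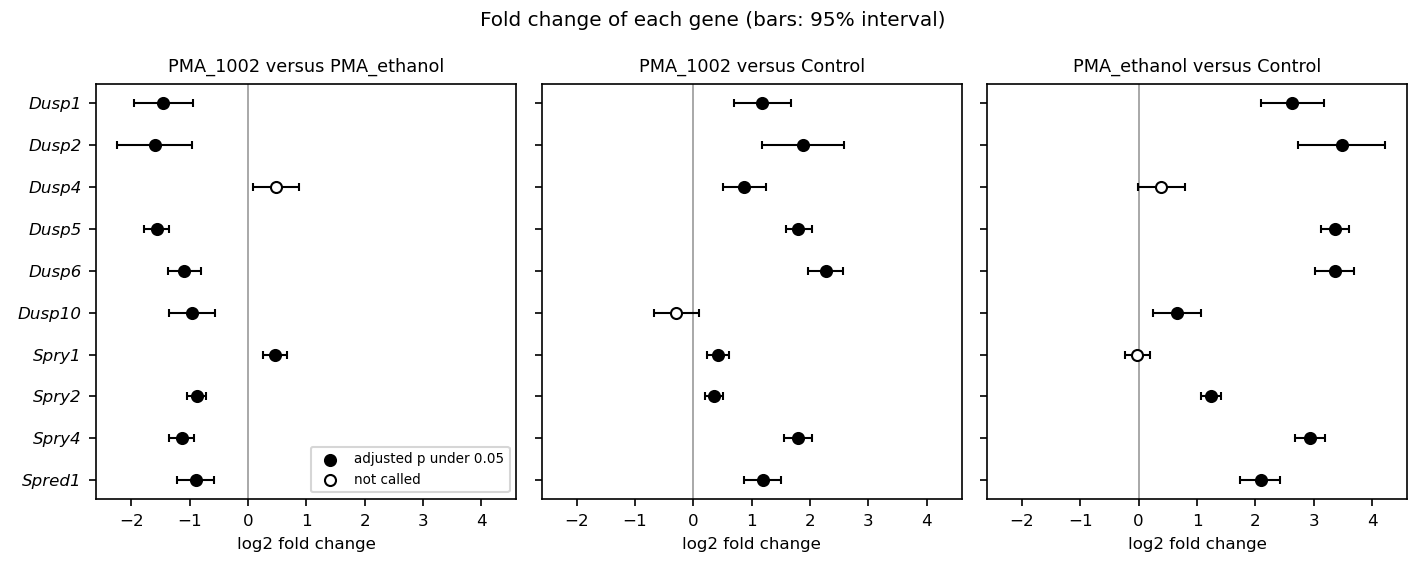
Log2 fold change (horizontal axis) of each gene in the 3 comparisons, with 95% intervals from the edgeR quasi-likelihood fit; filled points passed an adjusted p under 0.05. Dusp4 and Spry1 lie right of 0 for PMA_1002 versus PMA_ethanol, and the other 8 genes lie left of it.

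Dusp5 and Dusp6, the genes of the ERK phosphatases, rose in PMA_ethanol and were lower in PMA_1002 than in PMA_ethanol. Dusp5 encodes a nuclear phosphatase selective for ERK and lies at chr19:53529109-53542431 on GRCm38. Its level ran from 40.5 to 58.6 CPM in PMA_1002 (median 52.9), was 183, 130, 149 and 154 CPM in PMA_ethanol libraries 1 to 4, and was 14.6, 13.4, 16.1, 13.9 and 16.4 CPM in Control libraries 1 to 5. The 3 groups were fully separate. PMA_ethanol exceeded Control by a log2 fold change of 3.37 (SE 0.117, adjusted p = 3.95e-13). PMA_1002 lay below PMA_ethanol by a log2 fold change of -1.56 (SE 0.101, adjusted p = 2.69e-08) and above Control by 1.80 (SE 0.108, adjusted p = 8.58e-10). An antisense gene of the annotation used here, AC137853.2, shares 547 bases, 22.1% of the Dusp5 exon length. It is not among the genes counted in the deposited values, so its share of these reads is unknown.

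Dusp6 encodes a cytoplasmic phosphatase that acts on ERK (chr10:99263231-99267489). It ran from 141 to 242 CPM in PMA_1002 (median 177), was 304, 395, 417 and 421 CPM in PMA_ethanol, and was 38.2, 32.7, 43, 33.6 and 38.7 CPM in Control. Again no 2 groups overlapped. The log2 fold changes were 3.36 for PMA_ethanol versus Control (SE 0.155, adjusted p = 1.26e-11), -1.09 for PMA_1002 versus PMA_ethanol (SE 0.137, adjusted p = 1.32e-05) and 2.27 for PMA_1002 versus Control (SE 0.143, adjusted p = 1.79e-09).

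Dusp1 and Dusp2, the genes of nuclear phosphatases with broader targets, had the same calls in all 3 comparisons. Dusp1 (chr17:26505590-26562128) encodes a phosphatase of p38, JNK and ERK that is known to limit inflammatory cytokine production. It ran from 145 to 203 CPM in PMA_1002 (median 177), was 555, 266, 358 and 707 CPM in PMA_ethanol, and was 98.3, 53.4, 62.3, 86.9 and 80.3 CPM in Control. The groups did not overlap, although PMA_ethanol libraries 2 and 3 were well below libraries 1 and 4: the SD was 41.9% of the mean in PMA_ethanol, against 13.9% in PMA_1002 and 24% in Control. The log2 fold changes were 2.63 for PMA_ethanol versus Control (SE 0.253, adjusted p = 3.36e-07), -1.45 for PMA_1002 versus PMA_ethanol (SE 0.232, adjusted p = 0.000236) and 1.18 for PMA_1002 versus Control (SE 0.23, adjusted p = 0.000565).

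Dusp2 (chr2:127336159-127338376) is best known from activated leukocytes. It ran from 9.18 to 14.9 CPM in PMA_1002 (median 12.2), was 38, 30.8, 42.3 and 42.3 CPM in PMA_ethanol, and was 1.04, 2.24, 7.3, 1.54 and 3.44 CPM in Control. The groups were separate, and the Control values rest on 6 to 91 reads. PMA_ethanol exceeded Control by 3.48 on the log2 scale (SE 0.353, adjusted p = 4.19e-07), with a 95% interval of 2.73 to 4.23 that holds the estimates of Dusp5 and Dusp6. PMA_1002 had a log2 fold change of -1.60 versus PMA_ethanol (SE 0.3, adjusted p = 0.000767) and 1.88 versus Control (SE 0.334, adjusted p = 0.000234). Control library 3, the highest Control in Dusp2, was also the highest Control in the hair follicle sum (2363 CPM). Without it the log2 fold changes against Control were 4.19 for PMA_ethanol (adjusted p = 6.05e-10) and 2.59 for PMA_1002 (adjusted p = 2.85e-07), and with the hair follicle level as a covariate they were 3.46 and 1.92. The neutrophil sums and the monocyte and macrophage sums above moved with Dusp2. The sums of 2 other leukocyte types did not, although some single T cell markers were called. T cell sums overlapped between groups (37.3 to 54 CPM in PMA_1002, 43.6 to 65.4 CPM in PMA_ethanol and 45.3 to 64.2 CPM in Control). Of 8 T cell markers tested, 3 were higher and 0 lower in PMA_ethanol than in Control (32.5% and 35.9% of all genes tested). Against PMA_ethanol, 0 were higher and 3 lower in PMA_1002 (17.0% and 18.0%). Against Control, 0 were higher and 1 lower in PMA_1002 (28.4% and 26.7%). Mast cell sums were lower in PMA_ethanol (205 to 315 CPM) than in Control (336 to 440 CPM). The part of these cells in the change of Dusp2 was not tested.

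Dusp1 and Dusp5 are 2 of the 8 members with an entry in the RefSeq promoter table (GRCm38.p6), and the only ones of these 8 in which any of the 5 motifs searched was found. The search covered the 250 bases before the RefSeq start, and its bases up to the first that GENCODE M21 places in an exon of the gene are shown because both genes rose with PMA_ethanol and each holds a motif of an inducible transcription factor family. The motifs, sought on both strands, were the cyclic AMP response element (CRE, TGACGTCA), its core (TGACG, which the full element contains on each strand), the AP-1 motif (TGANTCA), an ETS motif (ACCGGAAG) and the serum response CArG box, and capitals mark each match.
Dusp1, chr17:26508520-26508722, minus strand:
Dusp1: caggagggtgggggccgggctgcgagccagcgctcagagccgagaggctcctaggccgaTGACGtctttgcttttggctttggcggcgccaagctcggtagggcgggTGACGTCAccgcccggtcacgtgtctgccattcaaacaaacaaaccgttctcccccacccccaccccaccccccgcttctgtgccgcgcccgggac
Dusp5, chr19:53528895-53529108, plus strand:
Dusp5: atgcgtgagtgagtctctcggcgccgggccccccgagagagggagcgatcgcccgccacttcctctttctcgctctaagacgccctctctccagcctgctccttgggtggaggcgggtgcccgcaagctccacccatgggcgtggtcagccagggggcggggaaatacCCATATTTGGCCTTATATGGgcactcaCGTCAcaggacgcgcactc
In Dusp1 the capitals are a CRE core at bases -191 to -187 and a full CRE at -143 to -136, counted from the RefSeq start, which for Dusp1 lies inside the longer gene that GENCODE M21 annotates, after its upstream exons. In Dusp5 they are a pair of adjacent CArG boxes, CCATATTTGG at -82 to -73 and CCTTATATGG at -72 to -63, and a CRE core on the other strand at -55 to -51.

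Over the 32851 promoters of that table, the same window held a full CRE in 1.55%, a CRE core in 17.8%, a CArG box in 1.47%, the AP-1 motif in 6.75% and the ETS motif in 1.72%. Among the 8 members with an entry, 1 held a full CRE, 2 a CRE core, 1 a CArG box, and 0 the AP-1 or the ETS motif. The bases after each RefSeq start were also sought near the starts of the gene's GENCODE M21 transcripts. The longest match was 6 bases for Spred1 and 50 for each other member with an entry. The Spred1 window, in which no motif was found, is thus not shown to lie before an annotated start. A match is a run of letters and not a shown binding site.

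Dusp4 and Dusp10 are the genes of the remaining phosphatases. Dusp4 was called only in PMA_1002 versus Control, and Dusp10 in the other comparisons but not in that one. Dusp4 (chr8:34807297-34819894) encodes a nuclear phosphatase of ERK and JNK. It ran from 10.4 to 15.3 CPM in PMA_1002 (median 13.1), was 8.88, 10.7, 7.47 and 8.87 CPM in PMA_ethanol, and was 5.55, 6.03, 10.4, 6.16 and 6.07 CPM in Control. The lowest PMA_1002 libraries met the highest library of each other group. The log2 fold change of PMA_ethanol versus Control was 0.39 (95% interval -0.01 to 0.80, adjusted p = 0.079), and that of PMA_1002 versus PMA_ethanol was 0.48 (95% interval 0.09 to 0.87, adjusted p = 0.0504). PMA_1002 versus Control was called, at 0.87 (SE 0.173, adjusted p = 0.000439), and stayed called in all 25 alternatives (0.72 to 1.09, adjusted p at most 0.003).

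The differences of Dusp4 that were not called varied with the processing. Over 25 alternatives PMA_ethanol versus Control ran from 0.16 to 0.61, with an adjusted p between 0.00315 and 0.47. The lowest value, 0.16, came with upper-quartile scaling (adjusted p = 0.47). Without Control library 3, whose 10.4 CPM stood apart from the other Controls, PMA_ethanol versus Control was called at 0.61 (adjusted p = 0.00315). Without that library PMA_1002 versus PMA_ethanol was also called, at 0.48 (adjusted p = 0.0154), and likewise without PMA_ethanol library 2 (0.58, adjusted p = 0.0395), PMA_1002 library 2 (0.53, adjusted p = 0.0417) or PMA_1002 library 5 (0.54, adjusted p = 0.0353). It was called too with upper-quartile scaling (0.56, adjusted p = 0.0258), with only the groups compared and with skeletal muscle markers as a covariate (0.47 and adjusted p = 0.0338 for both). Over 25 alternatives the adjusted p of this difference lay between 0.00808 and 0.119. Control library 3 and PMA_ethanol library 2, each the highest of its group in Dusp4, were also the highest in hair follicle markers, with sums of 2363 and 2284 CPM. With the hair follicle level as a covariate both differences were called, at 0.40 (adjusted p = 0.0409) for PMA_ethanol versus Control and 0.64 (adjusted p = 0.00808) for PMA_1002 versus PMA_ethanol.

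Dusp10 (chr1:184013302-184075636) encodes a phosphatase selective for p38 and JNK. It was among the lowest members, at 3.45 to 4.94 CPM in PMA_1002 (median 4.4), 9.21, 7.97, 4.56 and 11 CPM in PMA_ethanol, and 6.07, 5.34, 5.78, 4.47 and 4.92 CPM in Control. PMA_ethanol library 3, with 11 reads, lay within the range of the other groups, while the other 3 PMA_ethanol libraries lay above it. The log2 fold change was 0.66 for PMA_ethanol versus Control (SE 0.195, adjusted p = 0.00623), and this call was lost with upper-quartile scaling (0.43, adjusted p = 0.0609). It was -0.96 for PMA_1002 versus PMA_ethanol (SE 0.187, adjusted p = 0.000767). PMA_1002 versus Control was not called, at -0.30 (95% interval -0.68 to 0.09, adjusted p = 0.178), though with upper-quartile scaling it was (-0.45, adjusted p = 0.0418).

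Among the Sprouty genes, whose products are induced by growth factor signalling and dampen the path from receptor to ERK, Spry4 moved most. Spry4 (chr18:38586247-38601415) ran from 18.5 to 26.3 CPM in PMA_1002 (median 21.7), was 49.7, 42.3, 50.6 and 52.1 CPM in PMA_ethanol, and was 5.72, 5.86, 6.34, 5.7 and 8.03 CPM in Control. The 3 groups were separate with wide gaps. The log2 fold changes were 2.93 for PMA_ethanol versus Control (SE 0.122, adjusted p = 2.65e-12), -1.14 for PMA_1002 versus PMA_ethanol (SE 0.105, adjusted p = 5.4e-07) and 1.80 for PMA_1002 versus Control (SE 0.114, adjusted p = 1.64e-09).

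Spry2 (chr14:105891947-105896819) had the smallest SD relative to its mean of all members in each group (6.62% in PMA_1002, 5.69% in PMA_ethanol and 6.71% in Control). It ran from 31.5 to 37.4 CPM in PMA_1002 (median 34.8), was 68.4, 59.6, 64.3 and 63.2 CPM in PMA_ethanol, and was 27.6, 27.9, 24.5, 29.3 and 26.1 CPM in Control. PMA_1002 lay close above Control without overlap. PMA_ethanol versus Control gave 1.24 on the log2 scale (SE 0.0795, adjusted p = 5.4e-10), PMA_1002 versus PMA_ethanol gave -0.88 (SE 0.075, adjusted p = 2.36e-07) and PMA_1002 versus Control gave 0.36 (SE 0.0731, adjusted p = 0.00056).

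Spry1 (chr3:37639947-37644598) differed from its relatives: it was highest in PMA_1002 and was not called between PMA_ethanol and Control. It ran from 69 to 98.3 CPM in PMA_1002 (median 85.8), was 58.4, 65.2, 59.3 and 64.7 CPM in PMA_ethanol, and was 74.7, 54.4, 58, 61.6 and 68.2 CPM in Control. All PMA_1002 libraries were above all PMA_ethanol libraries, and PMA_1002 library 4 overlapped the Controls. PMA_1002 exceeded PMA_ethanol by 0.46 on the log2 scale (SE 0.0986, adjusted p = 0.00173) and Control by 0.43 (SE 0.0917, adjusted p = 0.000824). PMA_ethanol versus Control gave -0.03 (95% interval -0.24 to 0.19, adjusted p = 0.815). The sign of this last value turned with DESeq2 size factors (0.01), while with upper-quartile scaling the gene was called lower (-0.26, adjusted p = 0.0322). Gm42922, annotated on the other strand, shares 710 bases (24.4%) of the Spry1 exon length and had 0.798 to 2.2 CPM in PMA_1002, 0.415 to 1.62 CPM in PMA_ethanol and 1.03 to 1.7 CPM in Control. The strand option of the counting is not given in the sources used here.

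Spred1 (chr2:117121374-117182279), whose product binds neurofibromin and restrains Ras, ran from 152 to 285 CPM in PMA_1002 (median 240), was 423, 369, 466 and 411 CPM in PMA_ethanol, and was 111, 72.9, 89, 107 and 111 CPM in Control. The groups did not overlap. The log2 fold changes were 2.09 for PMA_ethanol versus Control (SE 0.163, adjusted p = 1.01e-08), -0.90 for PMA_1002 versus PMA_ethanol (SE 0.152, adjusted p = 0.000248) and 1.19 for PMA_1002 versus Control (SE 0.15, adjusted p = 6.16e-06).

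Levels were compared between genes as RPKM, the same CPM divided by the annotated exon length in kilobases. That length takes in every annotated exon, used in these ears or not, so ranks, sums and shares depend on the annotation. In PMA_1002, Dusp6 (57.6 ± 12.3 RPKM) and Dusp1 (52.2 ± 7.27 RPKM) were the most abundant members, and their ranges overlapped. In PMA_ethanol the same genes led, with Dusp1 at 142 ± 59.7 RPKM and Dusp6 at 123 ± 17.4 RPKM, again with overlapping ranges, followed by Dusp5 (62.3 ± 8.98) and Spred1 (61.5 ± 5.89), which were not apart either. In Control, Dusp1 (23 ± 5.52 RPKM) and Spry1 (21.8 ± 2.8 RPKM) led with overlapping ranges. Spry1 stood in rank 4 in PMA_1002, rank 6 in PMA_ethanol and rank 2 in Control, Dusp6 in ranks 1, 2 and 5, and Dusp5 in ranks 5, 3 and 6. Spry4 had the lowest mean in Control (1.33 ± 0.207 RPKM), but its range overlapped that of Dusp2, which lay above it in only 2 of 5 libraries. Dusp10 was last in both groups with PMA (1.43 ± 0.174 RPKM in PMA_1002 and 2.69 ± 0.895 RPKM in PMA_ethanol), though in PMA_ethanol its range overlapped that of Dusp4 and the order held in 3 of 4 libraries. All values here are means ± SD over 6, 4 and 5 libraries.

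Summed over the 6 DUSP genes, the level was 143 ± 13.7 RPKM in PMA_1002, 353 ± 66.5 RPKM in PMA_ethanol and 46.7 ± 5.73 RPKM in Control. Summed over the 4 Sprouty and Spred genes it was 83.5 ± 6.94, 124 ± 6.84 and 50.6 ± 5.28 RPKM in the same order of groups. Neither sum overlapped between any pair of groups. The make-up of the sums also differed in these libraries. Spry1 made up 35.3% ± 5.3 of the Sprouty and Spred sum in PMA_1002, 17.3% ± 1.86 in PMA_ethanol and 43.1% ± 1.75 in Control, and Spred1 39.2% ± 6.14, 49.7% ± 2.14 and 28.4% ± 2.41. Within the DUSP sum, Dusp6 made up 40% ± 5.39, 35.7% ± 8.49 and 25.6% ± 2.63, and Dusp4 3.31% ± 0.673, 0.963% ± 0.291 and 5.4% ± 1.57. These sums and shares are descriptions and were not tested.

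**Figure D3:**
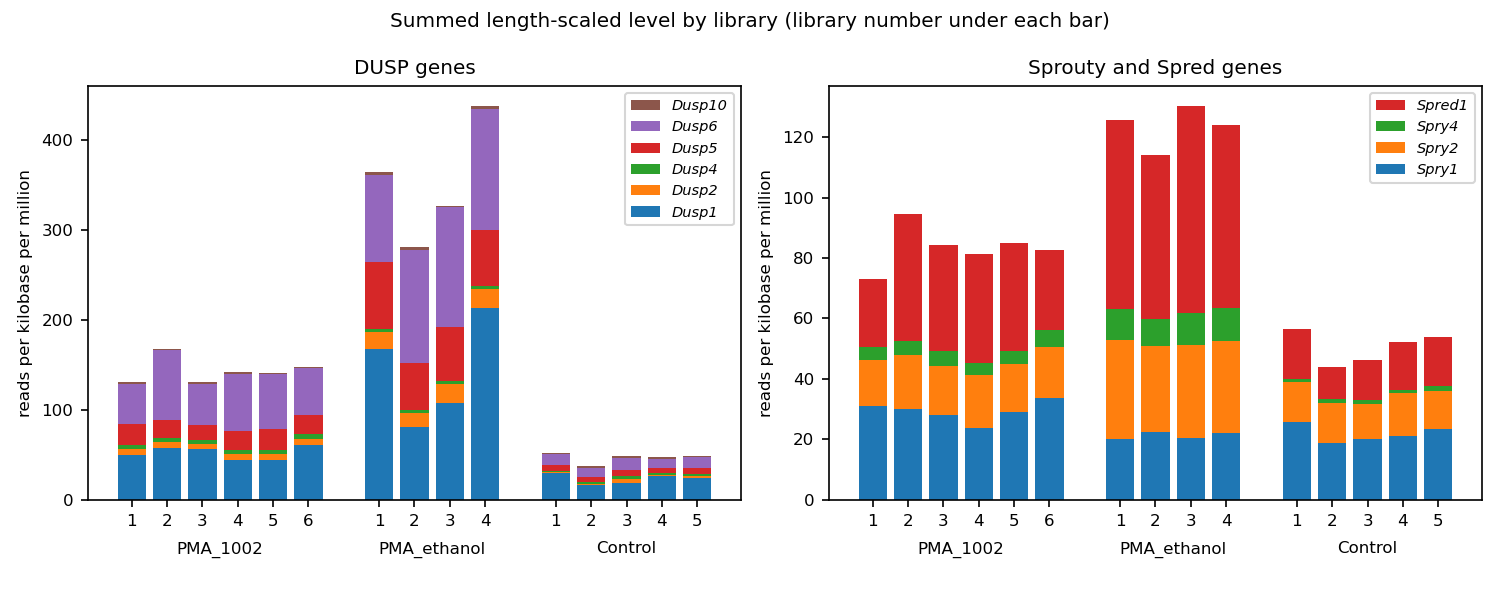
Length-scaled level (RPKM, linear vertical axis from 0) of the DUSP genes (left) and the Sprouty and Spred genes (right), stacked per library; the number under each bar is the library number within PMA_1002, PMA_ethanol or Control. DUSP sums run from 130 to 168 in PMA_1002, 281 to 438 in PMA_ethanol and 37.1 to 52.3 in Control.

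The 7 other genes of the same families were examined next. In PMA_ethanol versus Control 5 of the 7 were higher and 2 lower, where 32.5% and 35.9% of all genes tested were. Dusp7, which encodes a cytoplasmic ERK phosphatase, averaged 299 ± 33.1 CPM in PMA_ethanol and 75 ± 5.75 CPM in Control (log2 fold change 1.99, SE 0.0976, adjusted p = 1.88e-11). Dusp16, a JNK and p38 phosphatase gene, rose by 0.98 (SE 0.0769, adjusted p = 6.91e-09), Spred3 by 1.65 (SE 0.176, adjusted p = 2.85e-07), Dusp8 by 0.71 (SE 0.143, adjusted p = 0.00031) and Dusp9 by 1.47 (SE 0.349, adjusted p = 0.00125). Spred2, a relative of Spred1, was lower, at 34.9 ± 5.31 CPM in PMA_ethanol and 59.8 ± 5.23 CPM in Control (log2 fold change -0.76, SE 0.12, adjusted p = 2.6e-05). Spry3 was lower too (-1.76, SE 0.525, adjusted p = 0.00668), at 0.737 ± 0.616 CPM in PMA_ethanol and 1.87 ± 0.683 CPM in Control. In PMA_1002 versus PMA_ethanol 4 of the 7 were lower: Spred3 (-1.45), Dusp16 (-0.39), Dusp7 (-0.38) and Dusp8 (-0.46). Spry3 was higher (1.43, adjusted p = 0.0404), and Dusp9 (-0.44, adjusted p = 0.279) and Spred2 (0.15, adjusted p = 0.342) were not called. Of all genes tested, 18.0% were lower and 17.0% higher in that comparison. In PMA_1002 versus Control, Dusp7 (1.62), Dusp16 (0.58) and Dusp9 (1.03) were higher and Spred2 (-0.61) was lower. Here 28.4% of all genes tested were higher and 26.7% lower.

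Transcripts known to respond to ERK were mostly called in both steps. Of 19 listed and tested, 16 were higher and 1, Etv1, was lower in PMA_ethanol than in Control, with a median log2 fold change of 2.90. Of all genes tested, 32.5% were higher and 35.9% lower. In PMA_1002 versus PMA_ethanol 13 of the 19 were lower and 3 higher (median -0.88), where 18.0% and 17.0% of all genes tested were. In PMA_1002 versus Control 18 of the 19 were higher and 1 lower (median 1.83), where 28.4% and 26.7% of all genes tested were. Hbegf, which encodes a ligand of the epidermal growth factor receptor, averaged 120 ± 19.8 CPM in PMA_1002, 470 ± 91.7 CPM in PMA_ethanol and 10 ± 0.497 CPM in Control. Phlda1 averaged 100 ± 9.61, 280 ± 44.4 and 18.2 ± 1.61 CPM in these groups, and the immediate-early gene Ier2 135 ± 5.29, 248 ± 27.7 and 44.2 ± 3.18 CPM. The 3 that were higher in PMA_1002 than in PMA_ethanol were named after their values were seen. They were Ccnd1 (0.63, adjusted p = 0.00241), a cyclin D gene, and the ETS factor genes Etv1 (0.80, adjusted p = 0.0107) and Etv5 (0.31, adjusted p = 0.0297). Ccnd1 (-0.29, adjusted p = 0.0848) and Etv5 (0.02, adjusted p = 0.879) were not called in PMA_ethanol versus Control. The lists were chosen with earlier results of these libraries known, and some of their genes had already been described from them.

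The genes of the kinase cascades themselves changed less uniformly. Of 29 genes from receptor to ERK, 15 were higher and 8 lower in PMA_ethanol than in Control (median 0.25). Of all genes tested, 32.5% were higher and 35.9% lower. In PMA_1002 versus PMA_ethanol 7 of the 29 were higher and 8 lower (median 0.01), where 17.0% and 18.0% of all genes tested were. Map2k1, which encodes an ERK-activating kinase, averaged 78.3 ± 10.9 CPM in PMA_1002, 148 ± 23.3 CPM in PMA_ethanol and 47.4 ± 2.34 CPM in Control. Egfr, the epidermal growth factor receptor gene, averaged 192 ± 16.7, 306 ± 33.1 and 130 ± 6 CPM in these groups. Fgfr2, a receptor of fibroblast growth factors, ran the other way: it averaged 141 ± 28.2 CPM in PMA_1002, 74.8 ± 11.2 CPM in PMA_ethanol and 284 ± 20 CPM in Control. All differences between pairs of groups for these 3 genes were called, the weakest of them at an adjusted p = 4.4e-05 for Fgfr2 and PMA_1002 versus PMA_ethanol. In PMA_1002 versus Control 13 of the 29 were higher and 6 lower (median 0.14), where 28.4% and 26.7% of all genes tested were.

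Of 17 tested genes of the p38 and JNK cascades, 8 were higher and 4 lower in PMA_ethanol than in Control. Of all genes tested, 32.5% were higher and 35.9% lower. In PMA_1002 versus PMA_ethanol 3 of the 17 were higher and 7 lower, where 17.0% and 18.0% of all genes tested were. In PMA_1002 versus Control 8 of the 17 were higher and 3 lower, where 28.4% and 26.7% of all genes tested were. Map2k3, which encodes a p38-activating kinase, averaged 288 ± 35.3 CPM in PMA_1002, 509 ± 43 CPM in PMA_ethanol and 104 ± 10.1 CPM in Control. Mapkapk2, a kinase gene downstream of p38, averaged 209 ± 17.1, 362 ± 20.2 and 115 ± 11.1 CPM in these groups. Map3k8, which encodes a kinase that also feeds the ERK pathway in inflammation, averaged 39.4 ± 2.47, 59.6 ± 6.99 and 20.5 ± 2.05 CPM. The 4 genes called lower in PMA_ethanol than in Control, named after their values were seen, were Map2k6 (-2.27), Map3k1 (-1.20), Mapk12 (-0.76) and Mapk9 (-0.53). Map2k6, the gene of another p38-activating kinase, averaged 1.86 ± 0.979 CPM in PMA_1002, 1.72 ± 0.904 CPM in PMA_ethanol and 9.52 ± 0.548 CPM in Control, and was called lower in PMA_1002 than in Control as well (-2.38, adjusted p = 1.96e-06). Map3k1, Mapk12 and Mapk9 were the 3 genes of this list called higher in PMA_1002 than in PMA_ethanol (0.48, 0.46 and 0.27).

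**Figure D4:**
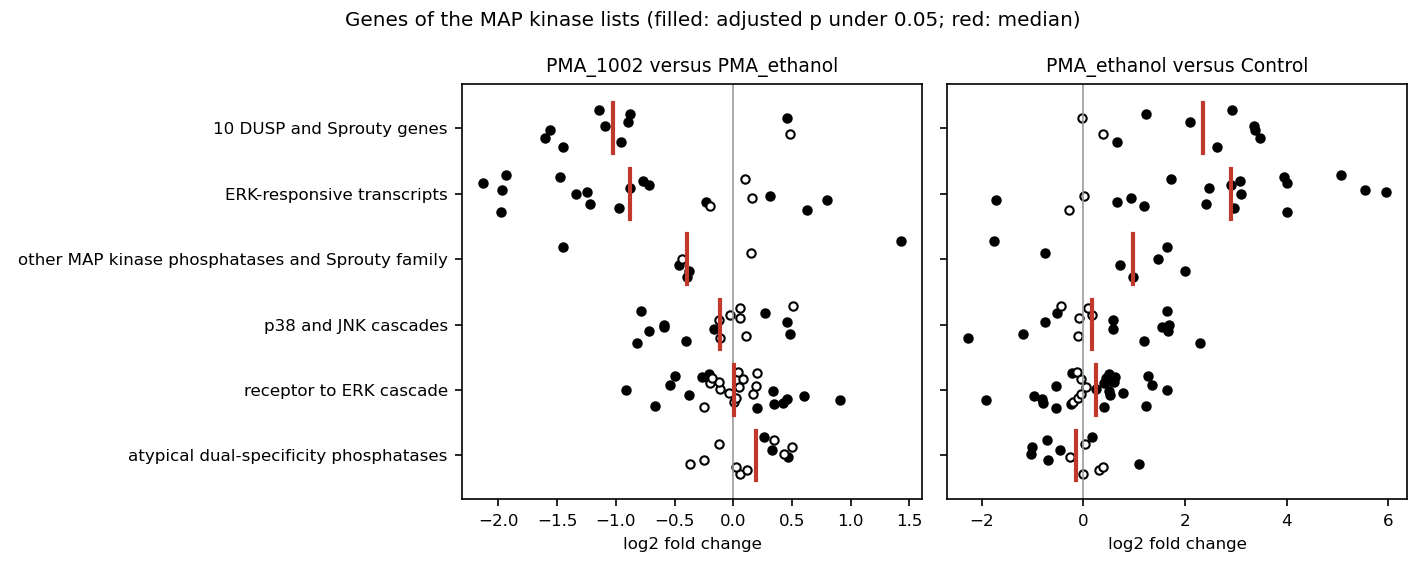
Log2 fold change (horizontal axis) of each tested gene of 6 gene lists for PMA_1002 versus PMA_ethanol (left) and PMA_ethanol versus Control (right); each point is a gene, filled where the adjusted p was under 0.05, and red bars are list medians. For PMA_1002 versus PMA_ethanol the medians are -1.02 for the 10 DUSP and Sprouty genes, -0.88 for ERK-responsive transcripts and 0.01 for the genes from receptor to ERK.

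For each member, the genes most alike over the 15 libraries were sought among 11865 other genes by Pearson correlation of log2 CPM, as a description. The libraries fall into 3 groups and share their depth and scaling, and after the group means were subtracted the correlations of these pairs lay between 0.327 (Spry2 and Ndrg1) and 0.954 (Spred1 and Picalm). Dusp5 was most like Ier5 (r = 0.995) and Trib1 (r = 0.994), Dusp6 like Has2 and Gda (r = 0.992 for both), Spry4 like Litaf (r = 0.995) and Ier2 (r = 0.993), and Spred1 like Picalm (r = 0.994) and Top1 (r = 0.991). Dusp1 was most like Rabgef1 (r = 0.988) and Ets2 (r = 0.985), Dusp2 like Tubb6 (r = 0.982) and Sirpb1c (r = 0.981), and Spry2 like Il1rn (r = 0.983) and Ndrg1 (r = 0.976). The remaining members had looser matches: Dusp4 with Heg1 (r = 0.951) and Atp6v0a2 (r = 0.88), Dusp10 with Selenon (r = 0.87) and Emilin1 (r = 0.864), and Spry1 with Fam89a (r = 0.825). Heg1, like Dusp4, had its highest mean in PMA_1002 (113 CPM, with 76.2 CPM in PMA_ethanol and 57.5 CPM in Control), as did Fam89a, like Spry1 (44 CPM, with 27.7 CPM in PMA_ethanol and 27.8 CPM in Control).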

How the data were processed

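The deposited values are read counts per Ensembl gene, 1 table per library, made by the authors with STAR 2.5 and HTSeq on GRCm38, after FastQC 0.11.5 and MultiQC 0.8, per the submitters' processing notes. The sources used here name neither the strand option nor the annotation release. Lines for reads given to no gene (28.5% to 32.85% of reads) stayed out of library sizes and tests. Symbols and exon lengths came from GENCODE M21 (GRCm38), with 48435 of 48795 identifiers matched.

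Counts were fitted in R 4.3.3 with edgeR 4.0.16 (TMM scaling, filterByExpr, robust quasi-likelihood test, 3 groups, 15 libraries). P-values are two-sided and Benjamini-Hochberg adjusted over 14991 genes; adjusted p under 0.05 was called. Standard errors (SE) and 95% intervals came from the quasi-likelihood F statistic. CPM use TMM-scaled library sizes, and log2 CPM a prior count of 2. Pairs of libraries within a group (31) differed beyond sampling noise (chi-square per degree of freedom 3.08 to 29.5, genes of 20 or more reads), so none was treated as a repeat. Replicate numbers came from the titles. The fit was tested on simulated data in which few genes changed, as many up as down. That test does not bear on the choice of scaling.

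Members and lists were chosen with earlier results of these data known. All members are named, as are the other MAP kinase phosphatase and Sprouty genes and up to 3 called genes per list and comparison. Further genes of the ERK-responsive list and of the p38 and JNK list, called in the other direction, were named after their values were seen. For likeness, genes needed a mean of at least 5 CPM, and 1 gene named by that rule is not reported here. DESeq2 1.42.0, other scalings, filters, covariates and left-out libraries were alternatives.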

Additional observations from a re-analysis of the deposited data

Results flagged for a closer look

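Each member's CPM was checked in each group for a library set apart from the rest, 30 gene and group combinations in all, of which chance alone flags about 1 in 20, and 2 were flagged. Dusp4 in Control library 3 (10.4 CPM) lay far above the next Control (6.16 CPM), a gap of 0.874 of the group's range against a limit of 0.71. Spry4 in Control library 5 (8.03 CPM) lay above the next Control (6.34 CPM), a gap of 0.728 of the range against the same limit. The Spry4 value stayed far below the PMA_1002 and PMA_ethanol libraries. Libraries 3 and 5 also had the highest and the next highest hair follicle marker sums of the Controls (2363 and 1073 CPM). The hair follicle level entered the fits only as a covariate for fold changes, and its part in these library values was not tested.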

How the results depend on the processing

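Over 25 alternatives, 732 of the 750 recomputed member values kept their direction and their side of the threshold, 12 gained a call, 1 lost it and 5 changed sign. The sign changes were all of Spry1 in PMA_ethanol versus Control, where 3 alternatives gave 0.01 with DESeq2 size factors, 0.01 with no filter and 0.02 with the DESeq2 test, and leaving out single libraries gave a range of -0.08 to 0.03. With upper-quartile scaling 1 member was called lower in PMA_ethanol versus Control (Spry1), and 1 in PMA_1002 versus Control (Dusp10). In PMA_1002 versus PMA_ethanol 2 members were called higher (Dusp4 as well as Spry1) with upper-quartile scaling, with only the groups compared and with the hair follicle or skeletal muscle level as a covariate, and 1 to 2 when single libraries were left out. The causes were not tested. The share of called genes that were higher was 33.6% with upper-quartile scaling and 47.5% with TMM for PMA_ethanol versus Control, 61.8% and 48.7% for PMA_1002 versus PMA_ethanol, and 34.6% and 51.5% for PMA_1002 versus Control. The filter of at least 1 CPM in at least 4 libraries, planned as stricter, kept more genes (15916).

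With the replicate number as a block, no member's call changed, and 4704 genes were called higher and 5158 lower in PMA_ethanol versus Control (4876 and 5382 without the block), 1890 and 2098 in PMA_1002 versus PMA_ethanol (2553 and 2691), and 4108 and 3699 in PMA_1002 versus Control (4252 and 3998). The numbers were not shown to pair the libraries, and low correlations cannot exclude a pairing. Deviations of same-numbered libraries correlated above 0.1 in 2 of 13 pairs (from -0.53 to 0.58), and 1 of 14 libraries correlated best with its own number. Depth limits Dusp10 and Dusp2 most, with 11 reads for Dusp10 in PMA_ethanol library 3 and 6 for Dusp2 in Control library 1.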

Other observations

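Atypical dual-specificity phosphatase genes, whose products mostly lack the domain that docks MAP kinases, were counted in the same way. Of 12 tested, 2 were higher and 5 lower in PMA_ethanol than in Control (median log2 fold change -0.14), where 32.5% and 35.9% of all genes tested were. In PMA_1002 versus PMA_ethanol 3 were higher, where 17.0% of all genes tested were, and the other 9 were not called (median 0.19), and in PMA_1002 versus Control 3 were higher and 3 lower, where 28.4% and 26.7% were. Dusp14 averaged 77.2 ± 14.8 CPM in PMA_1002, 100 ± 22.7 CPM in PMA_ethanol and 46.9 ± 9.15 CPM in Control, and both groups with PMA were called above Control (0.72 and 1.09 on the log2 scale). Dusp22 averaged 58.5 ± 2.65, 46.4 ± 5.48 and 64.5 ± 4.66 CPM in these groups and was called lower in PMA_ethanol than in Control (-0.47, adjusted p = 9.07e-05) and higher in PMA_1002 than in PMA_ethanol (0.33, adjusted p = 0.00415).

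AU-rich motifs in the 3' UTR, which are known to shorten the life of many inflammatory mRNAs, were counted in the GENCODE M21 transcript with the longest 3' UTR of each gene, a measure added after the values were seen. Dusp1 held 4 ATTTA motifs in 690 bases, a density above that of 96.1% of the 13509 tested genes with a 3' UTR of at least 100 bases, and Dusp2 held 4 in 581 bases, above 97.7%. At least 3 ATTTA motifs were held by 5 of the 10 members, and by 39.2% of those genes. Of the 10 members only Dusp1 held the longer motif TTATTTATT, which 8.33% of those genes held. One of its 2 sites, at chr17:26506159-26506187 on the minus strand (GRCm38), is shown with the motif in capitals.
Dusp1: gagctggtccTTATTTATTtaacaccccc
Dusp5 and Dusp6, which also rose in PMA_ethanol, held 1 ATTTA each in 1109 and 1190 bases, above 39.4% and 37.9% of genes. These counts describe sequence and were not related to mRNA stability here.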
